A study of Mus musculus with 28 samples.

Results

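DNA copy number was compared between thymic lymphomas and sarcomas of mice that made only a dimeric form of p53. The tumours were taken from the labels, as all those of genotype p53 AD/- whose tissue was thymic lymphoma (7 tumours) or sarcoma (5 tumours). They are 12 of the 24 tumours with a copy number table, and 12 of the 28 samples of the series. All 12 animals carried the AD allele in the germline over a null allele, their strain was 50% BALB/C and 50% C57BL6, and ages are not used here. The tumours were collected when the animals reached end point, and their exomes, the captured protein-coding part of the genome, were sequenced with 150 nt reads. Mice of genotype p53 RP/-, which have monomeric p53, gave 7 thymic lymphomas and 5 sarcomas of the same strain, which are used only where stated. Each tumour is 1 replicate, numbered within its group in the order of deposition. Whether tumours of one group came from related animals is not given, and the p-values measure the spread between these tumours.

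p53, encoded by Trp53, is a transcription factor that binds DNA as a tetramer and arrests or kills cells with damaged DNA. Cells without full p53 function tolerate the loss or gain of whole chromosomes. Thymic lymphoma is a tumour of developing T cells, which cut and rejoin their T-cell receptor genes. Sarcomas are tumours of connective tissue and do not rearrange antigen receptor genes.

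Each value is a log2 copy ratio of tumour over a comparison DNA, in segments of 2 markers or more, where a marker is a captured target or window and not a read. A log2 of 0 is the level of the comparison DNA. The 12 tumours had 52 to 499 autosomal segments. Their read depth is unknown, so no counting error can be given. Autosomal markers numbered 204845 to 204849 in each AD thymic lymphoma and 205075 to 205076 in each AD sarcoma, so any difference in processing between the tumour types cannot be told apart from tumour type. The median log2 over the autosomes was also lower in thymic lymphomas, at -0.11 ± 0.07 (SD, n = 7), than in sarcomas, at -0.03 ± 0.03 (n = 5; exact permutation p = 0.0126). Results on levels are given as deposited, and autosomes, bins, genes and loci were also tested after centring each tumour on its own median. AD sarcoma 5 was almost flat, with a profile SD of 0.04 over the autosomes, and this animal and that of AD thymic lymphoma 1 also had ear DNA sequenced. Normal cells in a tumour pull a log2 value towards 0, and their share is not given.

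The antigen receptor loci were read first, as a check of the labels. The T-cell receptor alpha and delta locus (chromosome 14, 52427967 to 54224198) lay below 0 in 7 of 7 thymic lymphomas, with a lowest mean log2 of -2.35, a median of -1.78 and a highest of -0.32. In sarcomas 1 to 5 its mean log2 was 0.23, 0.295, 0.14, 0.16 and -0.01. The groups did not overlap, and the difference was -1.75 (exact permutation test, adjusted p = 0.00631 over 5 loci). The deepest segment in this locus ranged from -2.26 to -4.30 across the 7 thymic lymphomas. AD sarcoma 5 had 1 short segment of 2 markers there at -0.84, and the other 4 sarcomas had no break in it.

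The T-cell receptor beta locus (chromosome 6, 40891296 to 41558371) had a lowest mean log2 of -2.75 in AD thymic lymphoma 1, a median of -0.74 and a highest of -0.26. In the 5 sarcomas it ranged from -0.16 to 0.00. This locus also separated the groups without overlap (difference -0.88, exact permutation test, adjusted p = 0.00631), by -0.58 without AD thymic lymphoma 1. The T-cell receptor gamma locus did not pass, at -0.40 ± 0.34 (n = 7) against -0.11 ± 0.04 (n = 5; exact permutation test, adjusted p = 0.0663), but did without AD thymic lymphoma 3 (adjusted p = 0.00722). Within it, a segment of 4 markers stood at -4.17 in AD thymic lymphoma 1, -3.87 in AD thymic lymphoma 2 and -4.01 in AD thymic lymphoma 4.

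Of the loci that B cells rearrange, the immunoglobulin heavy chain locus did not pass (difference 0.07, exact permutation test, adjusted p = 0.616; without AD thymic lymphomas 6 and 7 it was higher in thymic lymphomas by 0.21, adjusted p = 0.0496). Short deep segments were present in it all the same, at -3.98 with 2 markers in AD thymic lymphoma 1 and -4.11 with 5 markers in AD thymic lymphoma 3. The immunoglobulin kappa locus was lower in thymic lymphomas, at -0.26 ± 0.10 against -0.05 ± 0.07 (exact permutation test, adjusted p = 0.0126). With centring the kappa difference changed from -0.21 to -0.13 (exact permutation test, adjusted p = 0.0337). The differences at the alpha and delta locus and at the beta locus were then -1.67 and -0.80, with the same adjusted p as before, and gamma and heavy chain did not pass (adjusted p = 0.217 each). In every one of the 12 tumours a single long segment of chromosome 6 covered the kappa locus whole. Segments at or below -0.3 thus lay in both the alpha and delta locus and the beta locus in 7 of 7 tumours labelled thymic lymphoma, and in sarcomas the 2-marker segment of number 5 was the only one.

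**Figure D1:**
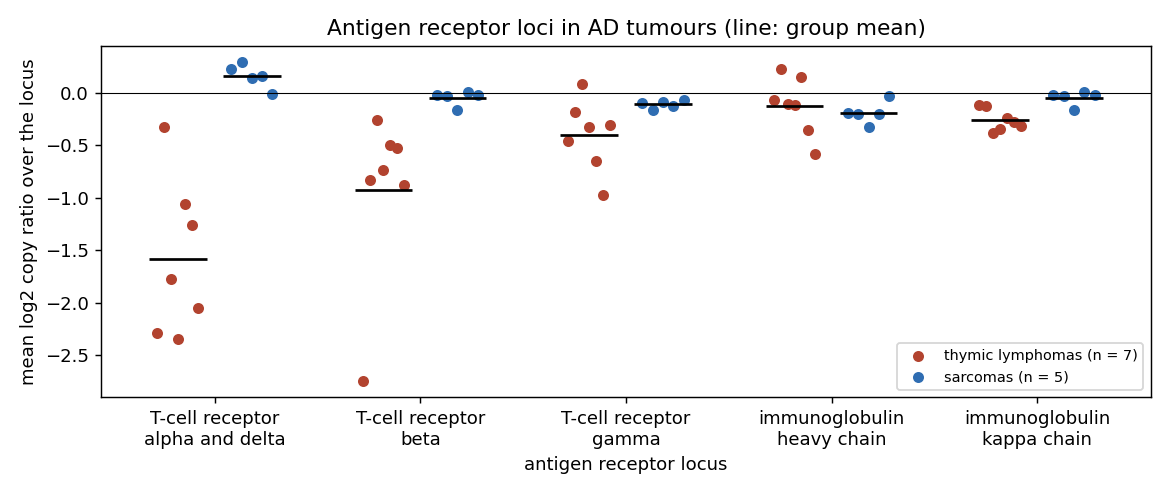
Mean log2 copy ratio over each of 5 antigen receptor loci (vertical axis) in each of the 7 AD thymic lymphomas (red) and 5 AD sarcomas (blue); the black line is the group mean. At the T-cell receptor alpha and delta locus all 7 thymic lymphomas lie at -0.32 or below and all 5 sarcomas at -0.01 or above.

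Far more of the genome was altered in the thymic lymphomas. A segment was called lost at a log2 of -0.3 or less and gained at 0.3 or more, and the altered share is the percent of segmented autosomal length in such segments. It was 12.3% at its lowest, 22.6% at the median and 46.1% at its highest in thymic lymphomas. In sarcomas 1 to 5 it was 0.289%, 0.467%, 12.2%, 1.04% and 0.0117%. AD sarcoma 3 lay just below AD thymic lymphoma 2, the least altered of its type, and the groups did not overlap. The means were 26% ± 12.5 (n = 7) and 2.81% ± 5.28 (n = 5), a difference of 23.2 points (exact permutation p = 0.00253, the smallest that 792 splits of the 12 tumours can give).

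Both directions contributed. Gained length was 10.3% ± 5.39 in thymic lymphomas and 1.75% ± 3.10 in sarcomas (exact permutation p = 0.0101). Lost length was 15.7% ± 11.5 and 1.06% ± 2.18 (exact permutation p = 0.0101), a difference of 14.6 points that became 6.92 points after centring (exact permutation p = 0.00758). Centred gained length was 17.9% ± 12.1 in thymic lymphomas, above their centred lost length of 7.01% ± 5.17. In sarcomas these were 4.57% ± 7.18 and 0.0844% ± 0.0715. At a cutoff of 0.2 the difference in gained length was 2.81 points and did not pass (exact permutation p = 0.467), where sarcomas had 11.5% gained and thymic lymphomas 14.3%. The SD of log2 along the autosomes, which uses no cutoff, was 0.295 ± 0.055 in thymic lymphomas and 0.136 ± 0.058 in sarcomas, again without overlap (exact permutation p = 0.00253).

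Whole autosomes, counted when at least 80% of the length was gained or at least 80% lost, changed in every thymic lymphoma. There were 3, 2, 4, 7, 3, 4 and 5 such changes in thymic lymphomas 1 to 7. Among sarcomas only number 3 had any, with 2, and the other 4 had 0. The means were 4 ± 1.63 and 0.4 ± 0.894 (exact permutation p = 0.00505), and at a cutoff of 0.5 the difference of 1.29 did not pass (exact permutation p = 0.053). In thymic lymphomas the autosomes lost most often were 13 and 18, each in 4 of 7, and 19 in 3 of 7, and chromosome 5 was gained in 3 of 7. Chromosomes 14, 16 and 17 were gained whole in some thymic lymphomas (2, 1 and 1 of 7) and lost whole in others (1 of 7 each). With centring the counts differed: chromosome 13 was lost in 3 of 7, 18 in 2 and 19 in 1, and chromosomes 4 and 5 were gained in 4 each and 17 in 3. Chromosomes 16 and 17 were then lost whole in 0 thymic lymphomas, and 14 alone was still gained in some (2) and lost in another (1).

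**Figure D2:**
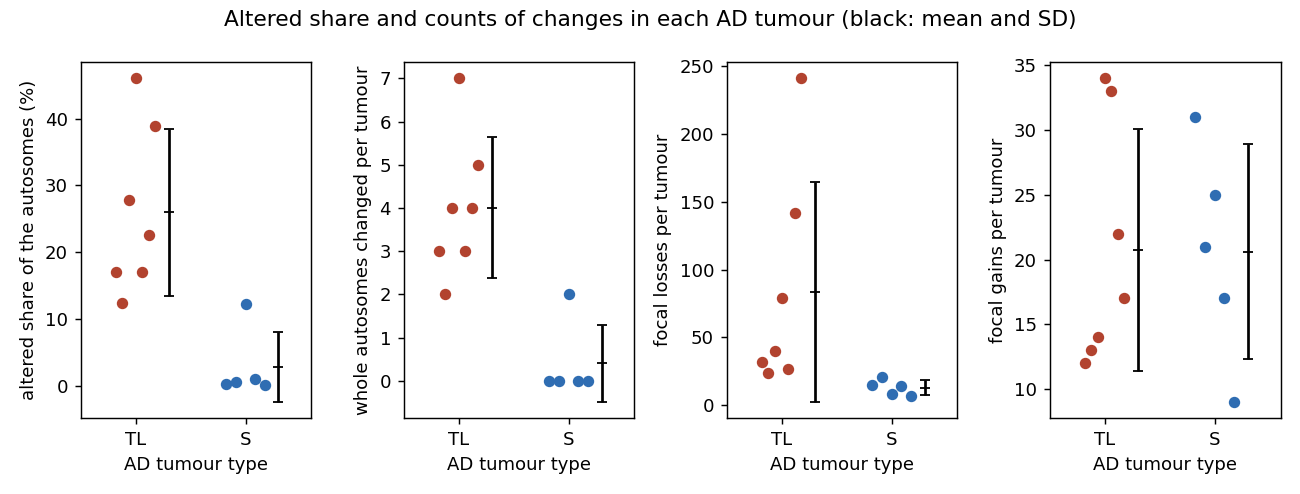
Altered share of the autosomes in percent, and numbers of whole-autosome changes, focal losses and focal gains (vertical axes), in each of the 7 AD thymic lymphomas (TL, red) and 5 AD sarcomas (S, blue), with the mean and SD in black. As deposited, altered share and focal losses do not overlap between the types, whereas focal gains average 20.7 and 20.6.

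Chromosome 7 differed most between the tumour types. Its mean log2, with segments weighted by length, was -0.35 at its lowest, -0.26 at the median and -0.08 at its highest in thymic lymphomas. In sarcomas 1 to 5 it was 0.13, 0.13, 0.33, 0.20 and 0.04. It lay below 0 in 7 of 7 thymic lymphomas and above 0 in 5 of 5 sarcomas, yet only AD sarcoma 3 carried it as a called whole gain and no thymic lymphoma as a called whole loss. With centring it lay below 0 in 6 of 7 thymic lymphomas, near 0 in numbers 1 and 2 (-0.002 and 0.007), and above 0 in 5 of 5 sarcomas. As deposited, the means of the 2 types follow. They were -0.23 ± 0.11 (n = 7) and 0.17 ± 0.11 (n = 5), a difference of -0.40 (exact permutation p = 0.00253, adjusted p = 0.048 over 19 autosomes).

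Chromosome 13 was the other autosome that passed. In thymic lymphomas 1 to 7 its mean log2 was -0.42, -0.13, -0.52, -0.29, -0.67, -0.78 and -0.32. In sarcomas 1 to 5 it was -0.10, -0.16, -0.09, -0.13 and -0.06. All 12 tumours lay below 0, and only AD thymic lymphoma 2 lay within the sarcoma range. The means were -0.45 ± 0.22 and -0.11 ± 0.03, a difference of -0.34 (exact permutation p = 0.00505, adjusted p = 0.048). These 2 calls, both lower in thymic lymphomas, are 10.5% of the 19 autosomes tested, and 0 were higher in thymic lymphomas (5 of 19 had an unadjusted exact p under 0.05, and limma called 2 as deposited, both lower; with centring it called chromosome 7 lower and chromosome 4 higher, adjusted p = 0.0108 and 0.0359).

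Chromosomes 4, 6 and 8 had an unadjusted exact p under 0.05 and did not pass. Chromosome 4 stood at 0.20 ± 0.17 in thymic lymphomas and 0.00 ± 0.06 in sarcomas (exact permutation test, adjusted p = 0.125), and passed without AD thymic lymphoma 1 (difference 0.25, adjusted p = 0.0411). With centring the difference for chromosome 7 was -0.31 and passed (exact permutation test, adjusted p = 0.048), and that for chromosome 13 was -0.25 and did not (adjusted p = 0.144). Centring raised chromosome 4 to a difference of 0.29 (exact permutation test, adjusted p = 0.096), and turned the sign of chromosomes 11 and 15. The exact test lost the chromosome 7 call when any tumour but thymic lymphoma 1 or 2 was left out (differences -0.36 to -0.43, adjusted p up to 0.115), since fewer splits raise its smallest p. With limma the chromosome 7 call held in all 12 such fits (adjusted p 0.000328 to 0.00403), and the chromosome 13 call was lost without thymic lymphoma 5 (difference -0.30) or sarcoma 1 (-0.34), 3 (-0.33) or 5 (-0.33).

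**Figure D3:**
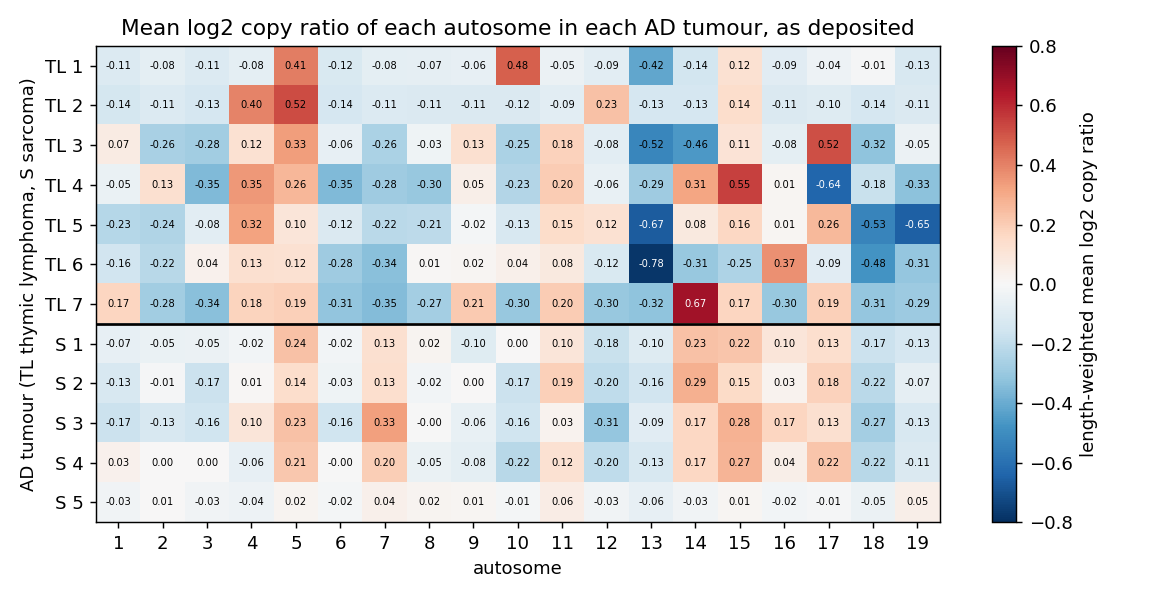
Length-weighted mean log2 copy ratio of the 19 autosomes (columns) in the 7 AD thymic lymphomas (TL) and 5 AD sarcomas (S), as deposited, with the value in each cell and red for gain and blue for loss. Chromosome 7 is below 0 in every thymic lymphoma and above 0 in every sarcoma, and sarcoma 5 is close to 0 throughout.

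**Figure D4:**
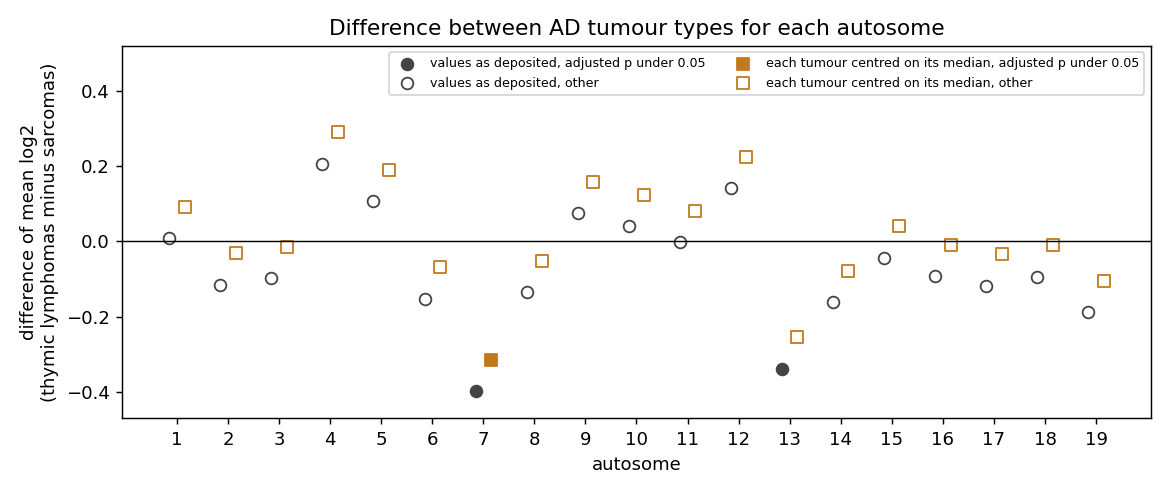
Difference of mean log2 between AD thymic lymphomas and AD sarcomas (vertical axis) for each autosome, as deposited (circles) and with each tumour centred on its median (squares); filled symbols have an adjusted p under 0.05 in the exact permutation test. Chromosome 7 is filled in both, and chromosome 13 only as deposited.

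The SD of the chromosome mean was larger among thymic lymphomas than among sarcomas for 18 of 19 autosomes, chromosome 7 being the exception, a difference in spread that was not tested. Chromosome 14 ran from -0.46 in AD thymic lymphoma 3 to 0.67 in AD thymic lymphoma 7, and chromosome 17 from -0.64 in AD thymic lymphoma 4 to 0.52 in AD thymic lymphoma 3. Sarcomas 1 to 4 shared small shifts of one sign: chromosomes 5, 7, 11, 14, 15, 16 and 17 lay above 0 in each, and chromosomes 6, 12, 13, 18 and 19 below 0 in each. Chromosome 15, for example, stood at 0.22, 0.15, 0.28 and 0.27 in sarcomas 1 to 4 and at 0.01 in sarcoma 5. Sarcoma 5 was closer to 0 than the other 4 on each of chromosomes 5, 7, 12, 13, 15, 17 and 18. Part of this pattern was also found in thymic lymphomas: all 7 lay above 0 on chromosome 5 and below 0 on 6, 13, 18 and 19. Chromosome 7 lay below 0 in all 7, and chromosomes 11, 12, 14, 15, 16 and 17 had both signs among them.

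In 1 Mb bins the calls were almost wholly on chromosome 7. Of 2388 autosomal bins, 142 (5.95%) were lower in thymic lymphomas and 0 were higher by the exact permutation test (548 had an unadjusted p under 0.05, of which 143 were higher). Of the 143 bins of chromosome 7, 140 passed. Only bins at the smallest exact p, 0.00253, passed, and that p needs groups without overlap. In all 142 bins the 7 thymic lymphomas thus lay below the 5 sarcomas by construction. An unadjusted exact p under 0.05 was found in 139 bins of chromosome 4, 89 of chromosome 8, 83 of chromosome 13 and 78 of chromosome 6. With centring 129 bins passed, 127 of them on chromosome 7. Limma called 220 bins as deposited, none higher, but 136 higher and 143 lower after centring. With 1 tumour left out the exact test called 224 bins without thymic lymphoma 1 (82 of them higher) or 2, and 0 without any of the other 10 (404 to 709 at an unadjusted p under 0.05), where limma called 141 to 225.

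Among bins that passed, the largest difference on chromosome 7 was in the bin from 32000001 to 33000000, at -0.41 ± 0.34 in thymic lymphomas and 0.19 ± 0.13 in sarcomas (difference -0.60). AD thymic lymphoma 7 stood at -1.13 there and the other thymic lymphomas between -0.51 and -0.11. On chromosome 14 the bin from 53000001 to 54000000, inside the T-cell receptor alpha and delta locus, stood at -2.0 ± 1.03 against 0.16 ± 0.12 (difference -2.16). The third of these bins, on chromosome 2 from 98000001 to 99000000, was set by high sarcoma values of 0.91, 0.77, 0.69, 0.94 and 1.10. Those came from 1 segment of 9 markers and 5 kb (98662236 to 98667232), and AD thymic lymphomas 4 and 5 had the same segment at 0.58 and 0.26. AD thymic lymphoma 2 had 7 of these markers in a segment at 0.65, close to sarcoma 3, and AD thymic lymphoma 3 had 8 of them at 0.11. Their bin values of -0.11 and -0.25 came mostly from a long neighbouring segment, so the separation of the groups in this bin depends on where segments ended. Each of the 3 bins had an adjusted p of 0.0425 in the exact permutation test, and with centring the differences were -0.51, -2.08 and -0.82 (adjusted p = 0.0467 each).

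Among 20661 protein-coding genes, 2243 (10.9%) were lower in thymic lymphomas and 6 (0.029%) higher by the exact permutation test. Gene values are overlap-weighted segment means, so neighbouring genes share 1 value and are not independent. Chromosome 7 held 1935 of the genes that passed, out of 2030 tested there, and chromosome 13 held 272. With centring 1653 genes passed, all lower, of which 1645 were on chromosome 7, so nearly all genes of chromosome 13 no longer passed. With 1 tumour left out, 4017 genes passed without thymic lymphoma 1 (1143 of them higher), 1951 to 2567 without any other thymic lymphoma or sarcoma 3, and 0 without sarcoma 1, 2, 4 or 5 (3966 to 4620 at an unadjusted p under 0.05). Outside these chromosomes, 8 trypsin family genes that lie within the T-cell receptor beta locus, Prss1 and Prss2 among them, stood at -1.36 ± 1.24 against -0.05 ± 0.07. The 6 genes that were higher lay on chromosome 4 and included Cdc42, a small GTPase of cell shape, at 0.33 ± 0.13 against 0.02 ± 0.06 (exact permutation test, adjusted p = 0.0267). None of these 6 passed with centring (exact permutation test, adjusted p = 0.0533 for Cdc42).

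A block of 18 genes on chromosome 2, named as zinc finger genes or gene models (Zfp967, Zfp973 and Zfp970 among them), was called gained in 4 of 5 sarcomas and in 0 of 7 thymic lymphomas. It stood at -0.18 ± 0.17 in the latter and at 0.84 ± 0.48 in sarcomas (difference -1.02, exact permutation test, adjusted p = 0.0464). AD sarcoma 5 stood at 0.01, within the range of the thymic lymphomas, and the difference did not pass with centring (adjusted p = 0.0533). Sarcomas 1, 3 and 4 had a segment with the same ends there (176706853 to 178032800). The strain is mixed and the comparison DNA is not given. Whether these values arose in the tumours or were inherited was not tested.

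Genes of 8 functional lists, 218 in all, passed the test on chromosomes 7 and 13 alone. Of the 218, 20 were lower and 0 higher by the test over all genes, or 9.17%, close to the 10.9% of all genes. The median difference was -0.06 over the listed genes and -0.09 over all genes. Of the 20, 17 lay on chromosome 7 and 3 on chromosome 13. None of the 32 T-cell lymphoma genes passed (7 had an unadjusted exact p under 0.05, 4 of them lower; median difference -0.07).

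Among 30 Myc, Ras and growth signalling genes 5 were lower. Hras, a Ras GTPase, stood at -0.26 ± 0.19 in thymic lymphomas and 0.17 ± 0.12 in sarcomas (difference -0.44). Igf2, a growth factor of the insulin family, differed by -0.43, and its receptor Igf1r by -0.39. The same list held Fgfr4, a fibroblast growth factor receptor on chromosome 13, at -0.47 ± 0.26 against -0.09 ± 0.04, and the kinase Akt2. Of the 22 cell cycle genes 3 were lower: the cyclins Ccnd1 (difference -0.43) and Ccne1 (-0.40) and the mitotic kinase Plk1 (-0.42). Those of chromosome 7 had an adjusted p of 0.0267 in the exact permutation test and those of chromosome 13 one of 0.0464. Without sarcoma 1, 2, 4 or 5 none of them passed: for Hras the difference stayed between -0.42 and -0.47, with an adjusted p of 0.0562 to 0.0641 (exact permutation test).

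Of 26 p53 pathway genes, 2 were lower, or 7.69% against 10.9% of all genes, and both lie on chromosome 7. They promote apoptosis, as do Pmaip1, Apaf1, Perp and Fas of the same list, which did not pass (differences -0.10, 0.03, 0.03 and -0.18). Bbc3, which encodes PUMA, stood at -0.26 ± 0.31 against 0.21 ± 0.14 (difference -0.47), and Bax at -0.19 ± 0.07 against 0.19 ± 0.13 (-0.38). In Bbc3 a loss of 4 markers at -1.17 in AD thymic lymphoma 7 lowered the mean further. Trp53 itself (chromosome 11, 69580348 to 69591873) did not pass, at 0.04 ± 0.12 (n = 7) against 0.08 ± 0.07 (n = 5; exact permutation test, adjusted p = 0.696). The sign of its difference, -0.05 as deposited, turned to 0.04 with centring. By its mean over the whole gene, Trp53 was called lost in 0 of the 12 tumours, and segments that cover part of it were not read apart.

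Palb2 (-0.42), Blm (-0.39) and Ercc1 (-0.37), which repair breaks, unwind recombination structures and excise lesions, were the 3 of 22 genome maintenance genes that were lower. Among 22 chromatin regulators these were Eed (-0.39), a Polycomb subunit, and Nsd1 (-0.38), a histone methyltransferase on chromosome 13. Of 35 lipid and energy metabolism genes the lipase genes Pnpla2 (-0.45) and Lipe (-0.38) and the lactate dehydrogenase gene Ldha (-0.39) were lower. Of 29 sarcoma genes these were Ptch1 (-0.39), the hedgehog receptor gene of chromosome 13, and Myod1 (-0.39), a muscle transcription factor gene. With centring Igf2, Ccnd1, Plk1 and Palb2 had an adjusted p of 0.0533 and Fgfr4, Nsd1 and Ptch1 of 0.127 to 0.155 in the exact permutation test, and the other 13 passed.

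Counted by tumour, 49 of the 218 listed genes were called lost in at least 2 thymic lymphomas, or 22.5% against 23.5% of all genes. Of the listed genes 42 were gained in at least 2 thymic lymphomas, or 19.3% against 18.4% of all genes. In at least 2 sarcomas 0 listed genes were lost, against 0.31% of all genes, and 5 were gained, against 1.54% of all genes. Those 5 were Rpl22, Trp73, Kmt2d, Cpt1b and Sco2. Of the T-cell lymphoma genes 25% were lost in at least 2 thymic lymphomas, and of the growth signalling genes 33.3%.

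Focal losses, altered segments of at most 3 Mb, separated the tumour types as deposited, whereas the counts of focal gains overlapped. There were 32, 24, 40, 79, 27, 142 and 241 focal losses in thymic lymphomas 1 to 7. In sarcomas 1 to 5 there were 15, 21, 8, 14 and 7. The groups did not overlap, and the means were 83.6 ± 81.2 and 13 ± 5.70 (difference 70.6, exact permutation p = 0.00253). Leaving out AD thymic lymphoma 7 made the difference 44.3, and leaving out both 6 and 7 made it 27.4 (exact permutation p = 0.00794). With neighbouring segments of one state joined, focal losses overlapped, at 18 to 176 in thymic lymphomas and 7 to 21 in sarcomas. The difference was then 44.6 (exact permutation p = 0.00758). Focal gains numbered 20.7 ± 9.34 and 20.6 ± 8.29, a difference of 0.114 (exact permutation p = 1).

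Losses of more than 10 markers, which rest on more targets, also separated the groups, at 26.3 ± 16.7 against 3.20 ± 2.17 (exact permutation p = 0.00253). Losses of at most 4 markers made up 123 of the 241 in AD thymic lymphoma 7 and 54 of the 142 in AD thymic lymphoma 6. Part of the excess lay in antigen receptor loci, with 4 to 12 focal losses per thymic lymphoma and 0 or 1 per sarcoma. Outside those loci the means were 74.6 ± 80.1 and 12.8 ± 5.97 (exact permutation p = 0.0126), with overlap, since AD thymic lymphoma 2 had 15 and AD sarcoma 2 had 21. Measured from the median of their own chromosome in place of 0, focal losses still differed by 64.9 per tumour (exact permutation p = 0.00253).

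Focal segments often had the same ends in several sarcomas. Of the focal altered segments of a sarcoma, 18.8% to 45.7% had the same start and end as one in another AD sarcoma. In thymic lymphomas 7.75% to 14.6% had the same ends as one in another AD thymic lymphoma. The lowest sarcoma share, that of sarcoma 5, was above the highest thymic lymphoma share, that of number 6, with no test made. As counts they overlapped, at 3 to 21 per sarcoma and 4 to 24 per thymic lymphoma. These are out of 16 to 46 focal altered segments per sarcoma and 37 to 258 per thymic lymphoma. Ends shared with the other tumour type made up 6.25% to 19.6% in sarcomas and 0% to 11.7% in thymic lymphomas.

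Promoters overlapped by the short losses of AD thymic lymphomas 6 and 7 had a higher median content of G and C than all promoters. RefSeq promoters of GRCm38.p6, from 250 bases before to 50 after a start site, had a median GC content of 53% over 31396 autosomal promoters. The 151 that overlapped a focal loss of at most 10 markers in AD thymic lymphoma 6 had a median of 60.7%, and the 254 in AD thymic lymphoma 7 one of 59.3%. Their quartiles were 51.3% to 66.7% and 53.8% to 65.7%, against 46% to 62% for all promoters. How many of the short losses reached a promoter was not counted. In thymic lymphomas 1 to 5 the medians were 54%, 46.7%, 36.7%, 45.7% and 48.8%, and in sarcomas they lay between 34% and 52%, over 1 to 13 promoters each. These 2 tumours had both the most short losses, 105 and 186, and the highest median promoter GC content, and the part of GC content in the counts of losses was not tested.

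A pair of promoters shows the range within losses shared by AD thymic lymphomas 6 and 7, and both were chosen after their values were seen. The first is a promoter of Maz, a zinc finger transcription factor gene, at chr7:127026430-127026729 on the minus strand, with a GC content of 87.3%. The Maz region was lost at -1.15 with 13 markers in AD thymic lymphoma 6 and at -1.17 with 8 markers in AD thymic lymphoma 7. The second is the promoter of the histone gene H2ac4 at chr13:23750838-23751137 on the plus strand, with a GC content of 33.3%. Its histone cluster was lost at -1.45 with 8 markers in AD thymic lymphoma 6 and at -1.31 with 10 markers in AD thymic lymphoma 7. Capitals mark the dinucleotide CG, the site of DNA methylation, which occurs 51 times in the first and 5 times in the second. It is present in 94.8% of all these promoters, with a median of 7 per promoter.
Maz promoter: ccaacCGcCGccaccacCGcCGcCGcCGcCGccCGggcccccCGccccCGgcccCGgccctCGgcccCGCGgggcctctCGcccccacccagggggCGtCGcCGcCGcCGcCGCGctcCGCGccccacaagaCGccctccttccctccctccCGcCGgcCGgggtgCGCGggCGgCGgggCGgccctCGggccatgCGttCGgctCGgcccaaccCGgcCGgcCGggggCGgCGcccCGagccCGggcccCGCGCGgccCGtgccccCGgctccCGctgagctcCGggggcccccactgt
H2ac4 promoter: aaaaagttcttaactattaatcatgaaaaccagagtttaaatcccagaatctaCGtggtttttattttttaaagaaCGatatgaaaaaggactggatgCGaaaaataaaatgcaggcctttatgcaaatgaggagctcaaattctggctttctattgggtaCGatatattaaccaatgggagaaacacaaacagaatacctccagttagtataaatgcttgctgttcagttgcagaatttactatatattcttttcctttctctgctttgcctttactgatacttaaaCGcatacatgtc

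High focal gains of listed oncogenes were found in 2 thymic lymphomas and 1 sarcoma, and no listed gene was amplified in both tumour types. Mycn, a Myc family oncogene on chromosome 12 (12936093 to 12941836), stood at 6.33 in AD thymic lymphoma 5 and 6.40 in AD thymic lymphoma 6. The segment of AD thymic lymphoma 5 held 81 markers and covered 84.1% of the gene, and that of AD thymic lymphoma 6 held 12 and covered 61.2%. The other 5 thymic lymphomas had Mycn between -0.28 and 0.23, and the sarcomas between -0.31 and -0.03. Akt1, which encodes a kinase activated by PI3 kinase, is also on chromosome 12 and stood at 1.17 in AD thymic lymphoma 5 and 4.80 in AD thymic lymphoma 6.

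AD thymic lymphoma 6 carried 9 focal gains at a log2 above 2 along chromosome 12. Among them were segments over Twist1, a transcription factor gene, at 4.71 and Gphn at 4.32. AD thymic lymphoma 5 had 1189 kb of chromosome 9 at 3.35 over 132 markers, with Pdgfd and matrix metalloprotease genes inside. AD sarcoma 1 had the receptor kinase gene Kit at 1.39 over 53 markers, with 76.7% of Pdgfra in the same segment. The same sarcoma had Nras at 1.11 over 113 markers. In the other 4 sarcomas Kit stood between 0.02 and 0.21 and Nras between -0.17 and 0.00.

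Segments past a log2 of 1 in either direction were joined into regions where they overlapped, and 25 regions held segments of at least 2 tumours. Of the 18 shared losses, 14 were found only in thymic lymphomas, 2 only in sarcomas and 2 in both. Thymic lymphomas had far more such losses to share, at 6 to 150 per tumour against 1 to 4 per sarcoma. Such gains numbered 0 to 15 per thymic lymphoma and 3 to 9 per sarcoma. Of the 7 shared gains, 2 were found only in thymic lymphomas, both on chromosome 12 at Mycn and Akt1, 4 only in sarcomas and 1 in both. Of the 14 losses, 4 lay in antigen receptor loci and 7 were shared by AD thymic lymphomas 6 and 7 alone. One region on chromosome 13 (65691428 to 66900748) chained losses of 4 thymic lymphomas and 3 sarcomas that did not all overlap. The 3 sarcomas had the same segment of 2 markers there (66156615 to 66162928), at -2.39 to -2.99. Segments of AD thymic lymphomas 3 and 5 covered it, and those of 1 and 6 lay apart from it. Shared gains of sarcomas included the chromosome 2 zinc finger block in sarcomas 1, 3 and 4, at 1.04 to 1.15 over 63 markers. No test was made on these counts, since segments of a tumour are not replicates.

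The difference between tumour types was then set beside that of RP animals in 1 fit with limma over all 24 tumours. Autosomal markers numbered 204917 to 204922 in each RP thymic lymphoma and 205073 to 205074 in each RP sarcoma. Marker numbers of thymic lymphomas thus differed between genotypes too, so any difference in processing cannot be told apart from the interaction. For chromosome 7 the difference was -0.40 in AD and -0.30 in RP tumours, and for chromosome 13 -0.34 and -0.28. Of 19 autosomes, 0 had a type difference that itself differed between genotypes (limma, smallest adjusted p = 0.269; 2 had an unadjusted p under 0.05). These were chromosome 14, at -0.16 in AD and 0.29 in RP tumours, and chromosome 15, at -0.04 and 0.27. Without AD thymic lymphoma 7, 1 autosome passed (limma, adjusted p = 0.01).

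Of the 2388 bins, 2 passed the same test, both in the zinc finger block of chromosome 2. The AD difference minus the RP difference was -1.09 for the bin from 176000001 (limma, adjusted p = 0.0121) and -1.04 for that from 177000001 (adjusted p = 0.0123). Without AD sarcoma 3, 0 bins passed (limma, smallest adjusted p = 0.0527; 93 had an unadjusted p under 0.05). Across the 19 autosomes 13 differences had the same sign in both genotypes.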

How the data were processed

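Exome libraries of tumour DNA were processed by the authors with Trim Galore 0.6.5, BWA 0.7.17 and GATK 4.1.0.0 on GRCm38, per the submitters' processing notes. The deposited tables hold, per the file headers, segments with a log2 copy ratio (the segment mean) and a number of markers. Neither the comparison DNA, nor how segments were cut, nor a purity correction is given in the sources used here. Chromosome X was not tested.

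Segments were averaged by overlap length over autosomes, 1 Mb bins and RefSeq genes (GRCm38.p6), with Python 3.11.15, numpy 2.4.6, pandas 2.3.3, scipy 1.17.1 and matplotlib 3.10.9. The 2 AD groups were compared with a two-sided exact permutation test of group means over 792 splits, Benjamini-Hochberg adjusted at 0.05. The interaction with genotype used limma 3.58.1 in R 4.3.3. P-values of per-tumour measures are unadjusted in the text, and those of altered share, focal losses and profile SD were 0.0107 when adjusted over 17 measures. The tests were tried on simulated data.

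The tumours and gene lists were chosen with earlier results of these data known. Genes were named by rule: Trp53, the 3 listed genes per list with the largest difference among those passing, listed genes in focal segments past a log2 of 1 or -1, and per direction the 5 bins with the largest difference, at most 1 per autosome. Akt2, Fgfr4, the 4 p53 pathway genes that did not pass, the 5 genes gained in sarcomas, and unlisted genes were named after their values were seen. Some listed genes that this rule would name are not reported here, though list counts include them. All 218 listed genes matched by symbol. Alternatives changed centring, weights, cutoffs, segment length, bin size, test and the tumours included.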

Additional observations from a re-analysis of the deposited data

Results flagged for a closer look

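A check for a tumour far from the rest of its group marked 24 of 138 sets of values. Chance marks about 1 in 20 of sets not chosen for an extreme value. Genes in focal segments past a log2 of 1 or -1 were among those checked. The marks at Akt1, Kit, Nras, Pdgfra and Twist1 thus follow in part from that choice. Many of the 24 share 1 segment and are not independent. No explanation was weighed.

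AD sarcoma 3 stood apart from the other 4 sarcomas in the length of genome altered. Its altered share was 12.2%, with 7.27% gained and 4.96% lost. It had 2 whole-autosome changes, 1 gain and 1 loss, and 11 large altered segments. Its chromosome 6 mean was -0.16, a single segment that also gave the values of the T-cell receptor beta and immunoglobulin kappa loci. AD sarcoma 1 stood apart at Kit and Pdgfra, at 1.39, and at Nras, at 1.11.

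Among thymic lymphomas, number 1 stood apart at the T-cell receptor beta locus, at -2.75. Number 6 stood apart at Akt1, at 4.80, at Twist1, at 4.71, and in part of chromosome 7, where Hras, Igf2, Ccnd1 and Pnpla2 were at -0.66 and Plk1 and Palb2 at -0.63. Number 7 had 150 focal losses at a log2 of -1 or less, and Bbc3 at -0.94.

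The tumour type difference differed between AD and RP animals in 2 bins of chromosome 2, by -1.09 and -1.04 (limma interaction, adjusted p = 0.0121 and 0.0123).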

How the results depend on the processing

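No paired analysis was possible because replicate numbers were given in accession order and pair no tumours. With fewer tumours the smallest exact p rises (0.00433 without 1 thymic lymphoma, 0.00606 without 1 sarcoma), so calls can be lost for that reason alone, although some counts rose. The 2 autosomes that passed became 1 with centring, 0 without thymic lymphomas 6 and 7 (5 at an unadjusted p under 0.05), 0 without the animals whose ear was sequenced (4 unadjusted), and 0 to 3 with each tumour left out, by the exact test or limma. The 142 bins became 220 with limma, 30 of 502 with 5 Mb bins, 0 without thymic lymphomas 6 and 7 (609 unadjusted), 0 without the ear animals (458 unadjusted), 0 to 224 with each tumour left out by the exact test (224 without thymic lymphoma 1 or 2), and 141 to 440 by limma (440, 289, 225 and 223 without thymic lymphomas 1, 2, 4 and 7). The 2249 genes became 0 in both reduced sets (5281 and 4419 unadjusted) and 0 to 4017 with each tumour left out. The whole-autosome difference was 1.29 at a cutoff of 0.5 (exact permutation p = 0.053). The focal altered difference was 43.0 with neighbouring segments joined (exact permutation p = 0.0909); the cause was not tested. The difference in focal gains reversed to -0.17 at a cutoff of 0.5, -1.54 joined, -1.46 at 1 Mb and -1.33 without the ear animals, and ran from -2.79 to 2.71 with each tumour left out. The Trp53 difference reversed to 0.039 with centring. Bins with a genotype interaction numbered 0 to 2, and autosomes 0 to 1, with each AD tumour left out. Under an alternative, a difference was labelled the same if it kept direction and side of the threshold. A count of calls was labelled the same within a ratio of 1.5 of the main count, whatever its direction. The level of a focal segment was labelled the same if it shifted by less than the SD of its group. Of the values of the main results, 144 were the same, 46 moved and 2 weakened. Of those of single genes, loci and chromosomes, and of the separate gains and losses, 387 were the same, 176 weakened, 10 reversed, 3 strengthened and 2 moved. The reduced sets and limma with tumours left out were chosen after seeing the data. Read depth and tumour purity are unknown, so small log2 values cannot be turned into copies or shares of cells.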

Other observations

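Chromosome X was not tested, since its level also depends on the sex of the animal and of the comparison DNA. Its mean log2 ranged from -0.14 to 0.99 in AD thymic lymphomas and from -0.92 to -0.03 in AD sarcomas.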
